A study of Homo sapiens with 18 samples.

Results

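The OAS and MX antiviral genes are 6 human genes: the oligoadenylate synthetase genes OAS1, OAS2, OAS3 and OASL, and the dynamin-like GTPase genes MX1 and MX2. They were picked by name from the 40184 gene IDs of an RNA-seq table, and all 6 were found. Their levels with vehicle and their changes with drug were known when they were picked, so those values are given here as a description, with their errors and no test. The libraries came from 3 acute myeloid leukaemia (AML) cell lines. Molm-14 and MV4-11 are labelled FLT3-ITD, an internal tandem duplication that keeps the FLT3 receptor kinase active. SKNO-1 is labelled KIT N822K, a substitution in the KIT receptor kinase. Each line was kept for 24 h in the vehicle DMSO or in RMC-4550 at 500 nM, with 3 libraries labelled as biological replicates in each of the 6 groups (18 libraries in all). RMC-4550 is an allosteric inhibitor of SHP2, the phosphatase that PTPN11 encodes and that passes signals from receptor kinases to RAS. Every SKNO-1 library, with either treatment, came from medium with human GM-CSF at 10 ng/mL, and the other lines had none, so line and growth factor cannot be told apart. Each line is a single cell line and not a set of patients, and the labels do not say how the cultures of one group were separated, so the p-values below measure the spread between these libraries. In bulk RNA, fewer cells that make a transcript and less of it per cell cannot be told apart.

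Type I and type III interferons bind receptors on the cell surface, and the kinases JAK1 and TYK2 then phosphorylate STAT proteins. These join IRF9 in the complex ISGF3, which binds the interferon-stimulated response element, a repeat of GAAA letters in the promoters of antiviral genes. OAS1, OAS2 and OAS3 are enzymes that sense double-stranded RNA and make the second messenger 2-5A, a chain of linked adenylates. OASL lacks that enzyme activity and binds the sensor RIG-I. MX1 and MX2 form rings of GTPase subunits that block incoming viruses, MX1 broadly and MX2 against HIV and herpesviruses at the nuclear pore.

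In GENCODE 29 on GRCh38, OAS1 (ENSG00000089127) lies on chromosome 12 from 112906777 to 112933222, OAS3 (ENSG00000111331) from 112938352 to 112973249 and OAS2 (ENSG00000111335) from 112978395 to 113011723, all on the plus strand and next to each other. OASL (ENSG00000135114) lies apart from them on the minus strand of chromosome 12, from 121019111 to 121039242. MX2 (ENSG00000183486) and MX1 (ENSG00000157601) are neighbours on the plus strand of chromosome 21, from 41361943 to 41409390 and from 41420304 to 41459214. Antisense genes overlap 4 of them: AC004551.1 overlaps OAS1, OAS2 and OAS3 and had 13 reads over the 18 libraries, and AP001610.1 overlaps MX1 and had 3. Whether the counting used strand is not given in the sources used here.

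The response element is the site that ISGF3 binds, so the matches to it are shown first. RefSeq promoter windows on GRCh38.p14, 250 bases before to 50 after a transcript start, were matched by symbol for 3 of the 6 genes, with 1 window each for OAS1 and OAS3 and 3 for MX1. OAS2, OASL and MX2 had no entry. A pair of GAAA blocks with any 2 letters between them, or of TTTC blocks for the other strand, was in 3.57% of all 35116 windows. Each line gives a match in capitals with 10 bases on either side, 5′ to 3′ on the plus strand.
OAS3 distal: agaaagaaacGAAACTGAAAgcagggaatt
OAS3 proximal: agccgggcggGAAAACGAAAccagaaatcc
MX1 first window: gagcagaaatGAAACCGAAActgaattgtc
MX1 last window: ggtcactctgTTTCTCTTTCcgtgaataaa
OAS1: cccttctgagGAAACGAAAccaacagcag
The distal OAS3 match is at chr12:112938331-112938340, 143 to 134 bases before the RefSeq start and just outside the GENCODE 29 gene. The proximal OAS3 match is at chr12:112938462-112938471, 12 to 3 bases before that start. The first MX1 match is at chr21:41420569-41420578, from base 12 to base 21 after the start of its first window, in transcribed sequence, and the bases CT that follow it complete a longer form of the element, which 0.273% of windows hold. The other MX1 match, of TTTC blocks, is at chr21:41431854-41431863, 196 to 187 bases before the start of its last window. OAS1 had no match with 2 spacer letters. Its line shows GAAA blocks with 1 spacer letter, at chr12:112906945-112906953, 17 to 9 bases before its start. That form was added to the search after the OAS1 window had been read, and 3.12% of windows hold it on either strand, those of OAS3 and the first and second of MX1 among them. A match is a string of letters in a window, not a measured binding site.

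Read totals ran from 17434810 to 19959917 per library. Levels are in CPM, read counts scaled to a common library size. Mitochondrial genes took 10.5% to 15.02% of reads in 4 libraries (Molm-14 with RMC-4550 replicate 2, MV4-11 with DMSO replicates 1 and 3, MV4-11 with RMC-4550 replicate 1), against 5.07% to 7.02% in the other 14. The part of this share in the results was not tested beyond the values within each side of 10% and the fits with the share as a covariate given below. Of 8 AML and myeloid markers, 5 to 7 reached 1 CPM in each group, and their sum was higher with RMC-4550 in every line. It was 1008 to 1027 CPM with DMSO and 1029 to 1097 with RMC-4550 in Molm-14, 1001 to 1058 and 1167 to 1227 in MV4-11, and 1266 to 1308 and 1482 to 1588 in SKNO-1. Single markers went both ways in each line. With DMSO first, mean FLT3 was 622 and 556 CPM in Molm-14, 410 and 568 in MV4-11, and 328 and 466 in SKNO-1. Mean SPI1 was 214 and 305 CPM in Molm-14 and 381 and 333 in MV4-11. Mean CD33 was 158 and 143 CPM in SKNO-1. CD3D, which defines T cells, was at 0 reads in every Molm-14 and MV4-11 library. The markers of plasmacytoid dendritic cells, which make much interferon, had 2 of 5 genes at 1 CPM (IRF7 and TCF4). Their sum was 40.2 to 47.9 CPM with DMSO and 102 to 144 with RMC-4550 in Molm-14, 103 to 135 and 187 to 249.4 in MV4-11, and 69.8 to 75.9 and 128 to 138 in SKNO-1. IRF7 is also in the list of regulatory factors below. CLEC4C, which defines those cells, was at 0 in every Molm-14 library. In Molm-14 the T cell list summed to 11.4 to 13.7 CPM with DMSO and 2.09 to 3.65 with RMC-4550, and the NK cell list to 175 to 182 and 131 to 147, with the NK marker KLRF1 at 0 in both groups. Other markers of these lists were expressed there. TRAC had means of 12.6 CPM with DMSO and 2.90 with RMC-4550, NCAM1 of 145 and 88.5, and NKG7 of 33.8 and 51.3. In MV4-11 the T cell list summed to 3.63 to 5.86 CPM and 0.863 to 1.06. The part of these marker lists in the results was not tested.

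With RMC-4550, transcripts of the OAS and MX genes were higher in all 3 lines, with 1 exception: MX1 in Molm-14. Every treated library lay above every DMSO library for 6 of 6 genes in MV4-11 and in SKNO-1 and for 5 of 6 in Molm-14. The median log2 change over the 6 genes was 3.98 in MV4-11 (range 2.66 to 4.39), 2.33 in SKNO-1 (1.81 to 2.66) and 2.01 in Molm-14 (0.25 to 2.54). The median over all genes tested was -0.01, -0.05 and -0.06 in the same order. These counts follow from how the genes were picked. The share of all genes without overlap was not counted, and the shares that follow are of calls by a test. A limma fit over all genes, with Benjamini-Hochberg (BH) adjustment, called 21.5% of the 13971 genes tested in Molm-14 higher and 46.7% in either direction. The shares were 5.85% and 13.9% of 14739 genes in MV4-11, and 10.8% and 27.1% of 14670 in SKNO-1. The test needed 1 CPM in at least 3 libraries of the line. OASL in Molm-14 and OAS3 and MX1 in MV4-11 had 0 DMSO libraries at 1 CPM. They met the filter only through their treated libraries, so they had to differ. OAS3 in Molm-14 and MX1 in SKNO-1 had 2 of 3 DMSO libraries at 1 CPM and needed at least 1 treated library. MX1 in Molm-14 did not meet the filter.

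**Figure D1:**
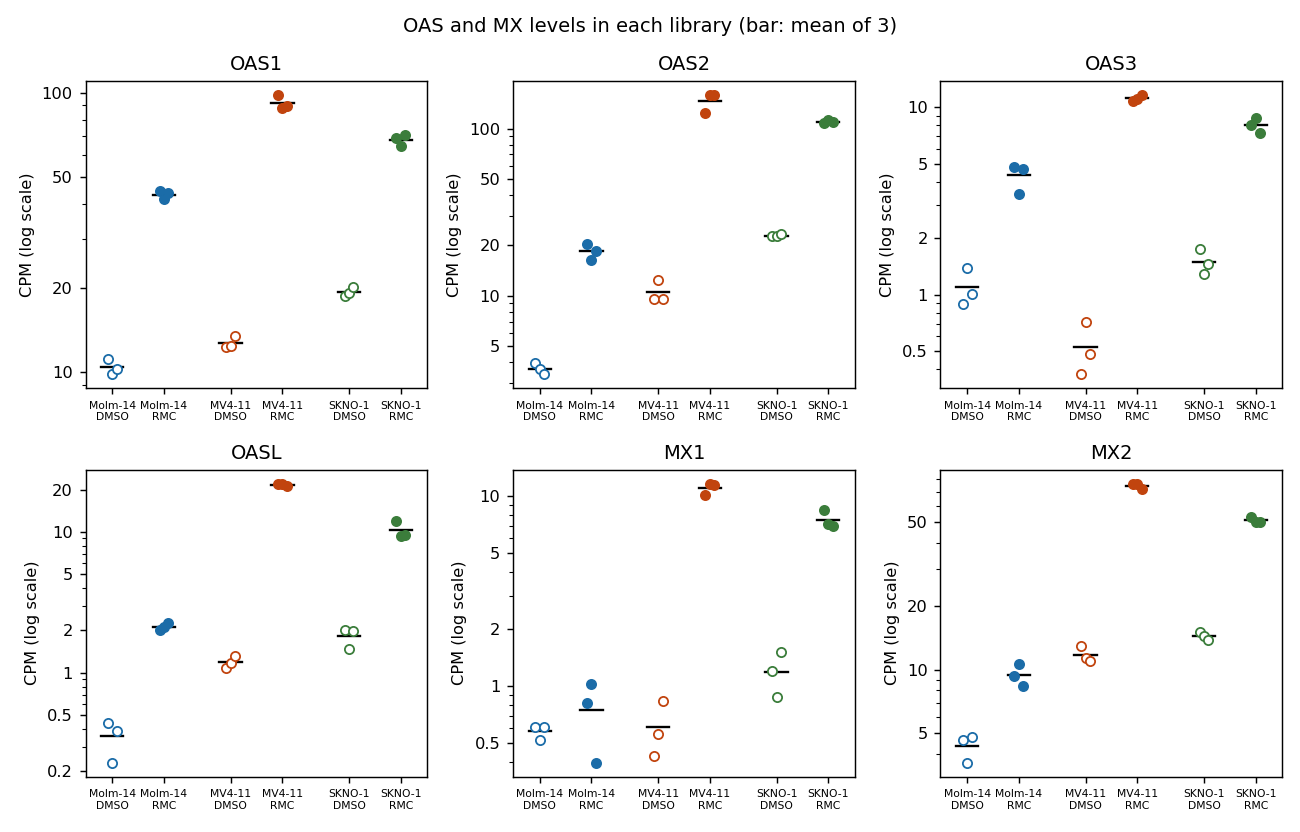
Level of each gene in every library, in CPM on a log axis, with open points for DMSO, filled points for RMC-4550 and a bar at the mean of 3 libraries. The treated points lie above the DMSO points of the same line in every panel except MX1 in Molm-14, where 0.396 to 1.02 CPM overlaps 0.519 to 0.613 CPM.

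OAS1 makes short 2-5A chains and was the OAS gene with the smallest change in MV4-11 and SKNO-1. In Molm-14 it was read at 11.2, 9.86 and 10.3 CPM with DMSO and at 44.4, 41.5 and 43.7 CPM with RMC-4550. In MV4-11 the levels were 12.3, 12.4 and 13.5 CPM, against 98.1, 88.2 and 90.0 CPM. In SKNO-1 they were 18.7, 19.2 and 20.1 CPM, against 69.1, 64.3 and 70.4 CPM. No 2 of these 6 groups overlapped, and MV4-11, second lowest with DMSO, was the highest with drug. The treated mean was 4.14-fold the DMSO mean in Molm-14, 7.25-fold in MV4-11 and 3.51-fold in SKNO-1, and the log2 changes were 2.05, 2.86 and 1.81 (SE 0.079 in each line).

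OAS2 had the highest treated level in CPM of the 6 genes in MV4-11 and SKNO-1. It is the membrane-anchored OAS enzyme, with a pair of catalytic-type domains. Its level in Molm-14 was 3.94, 3.63 and 3.40 CPM with DMSO and 20.5, 16.3 and 18.4 CPM with RMC-4550. In MV4-11 it was 9.52, 12.4 and 9.58 CPM, against 124, 159 and 158 CPM. In SKNO-1 it was 22.6, 22.7 and 23.3 CPM, against 108, 112 and 109 CPM. The groups did not overlap, and untreated SKNO-1 lay above treated Molm-14. In MV4-11 the lowest values within each group (9.52 and 9.58 with DMSO, 124 with RMC-4550) were those of the 3 libraries with 10% or more mitochondrial reads. The log2 change in MV4-11 was 3.68 among the libraries under 10% and 3.70 among those at or over 10%, against 3.81 (SE 0.12) over all 6. The change was 2.32 in Molm-14 and 2.26 in SKNO-1 with the same SE, folds of 5.03 and 4.80, and the MV4-11 fold was 14.02.

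OAS3 makes long 2-5A chains. It was read at 0.889, 1.38 and 1.00 CPM in Molm-14 with DMSO and at 4.81, 3.46 and 4.69 CPM with RMC-4550. In MV4-11 it was at 0.377, 0.716 and 0.479 CPM (7 to 14 reads) against 10.8, 11.1 and 11.6 CPM. In SKNO-1 it was at 1.75, 1.29 and 1.46 CPM against 8.004, 8.72 and 7.26 CPM. MV4-11 was thus the lowest line with DMSO and the highest with drug, and its fold of 21.3 was the largest of any OAS or MX gene in any line. The log2 change was 4.39 in MV4-11, 2.40 in SKNO-1 (SE 0.23) and 1.97 in Molm-14. The DMSO libraries of Molm-14 and SKNO-1 overlapped. The MV4-11 change was 3.94 among the libraries under 10% mitochondrial reads (1 DMSO and 2 treated) and 4.58 among those at or over 10% (2 and 1).

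OASL, the member without synthetase activity, was rare in untreated Molm-14, at 0.444, 0.231 and 0.390 CPM (8, 4 and 7 reads). With RMC-4550 it was at 2.02, 2.11 and 2.26 CPM in that line. In MV4-11 it was at 1.08, 1.18 and 1.32 CPM with DMSO against 22.02, 21.8 and 21.2 CPM. The means of these groups were 18.2-fold apart. In SKNO-1 the levels were 2.03, 1.47 and 1.98 CPM against 12.03, 9.42 and 9.56 CPM. Treated Molm-14 and untreated SKNO-1 overlapped. The log2 change was 4.16 in MV4-11, 2.54 in Molm-14 and 2.49 in SKNO-1 (SE 0.21).

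MX1 was the member whose lines differed most. Untreated cells had little of it: 0.611, 0.519 and 0.613 CPM in Molm-14 (9 to 11 reads), 0.430, 0.563 and 0.838 CPM in MV4-11 and 1.20, 0.872 and 1.51 CPM in SKNO-1. With RMC-4550 it was at 10.1, 11.6 and 11.5 CPM in MV4-11 and at 8.51, 7.14 and 6.94 CPM in SKNO-1. Both treated groups stood clear of every DMSO library, with folds of 18.2 and 6.32. In treated Molm-14 it was at 0.820, 1.02 and 0.396 CPM (15, 16 and 7 reads), which overlapped the DMSO libraries of all 3 lines. The log2 changes were 4.17 in MV4-11, 2.66 in SKNO-1 and 0.25 in Molm-14 (SE 0.31). Leaving out single Molm-14 libraries moved the last value from -0.02, without RMC-4550 replicate 2, to 0.64. At 7 to 16 reads per library a change of that size was not detectable. In MV4-11 the change was 4.30 in libraries with a mitochondrial share under 10% and 4.01 in the others.

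MX2 was the more abundant MX gene. In Molm-14 it was read at 4.67, 3.63 and 4.79 CPM with DMSO and at 9.40, 10.6 and 8.43 CPM with RMC-4550. In MV4-11 it was at 13.0, 11.4 and 11.0 CPM against 76.3, 75.7 and 71.8 CPM. In SKNO-1 it was at 15.04, 14.5 and 13.8 CPM against 53.2, 50.01 and 50.1 CPM. Unlike MX1, it was higher in all 3 treated Molm-14 libraries than in the DMSO libraries, though treated Molm-14 still lay below untreated MV4-11. The treated mean was 2.17-fold the DMSO mean in Molm-14, 6.33-fold in MV4-11 and 3.54-fold in SKNO-1. The log2 changes were 1.12, 2.66 and 1.82 (SE 0.11).

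Levels of different genes were compared per kilobase of the longest GENCODE 29 coding transcript, which runs from 2416 bases for OAS1 to 6719 for OAS3. OAS1 was the most abundant of the 6 in every group, from 4.32 ± 0.28 CPM per kilobase (SD, n = 3) in untreated Molm-14 to 38.1 ± 2.19 in treated MV4-11. OAS2 and MX2 came next in all 6 groups. OAS3 was the least abundant in MV4-11 and SKNO-1 with either treatment, from 0.078 ± 0.026 to 1.66 ± 0.064 CPM per kilobase in MV4-11. The ratio of MX1 to MX2 per kilobase went from 0.046 ± 0.019 to 0.131 ± 0.013 in MV4-11 and from 0.073 ± 0.022 to 0.129 ± 0.010 in SKNO-1. In Molm-14 it went the other way, from 0.117 ± 0.007 to 0.067 ± 0.023, and in none of the lines did the treated and DMSO ratios overlap. The ratio of OAS1 to OAS2 was lower with RMC-4550 in each line, at 5.59 ± 0.30 against 4.63 ± 0.38 in Molm-14, 2.41 ± 0.41 against 1.25 ± 0.26 in MV4-11 and 1.66 ± 0.035 against 1.21 ± 0.078 in SKNO-1. Whether the mix of transcripts differed between treatments was not tested.

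With DMSO the order of the lines was nearly the same for each gene. SKNO-1 had the highest mean for all 6 genes and Molm-14 the lowest for 5, the exception being OAS3, lowest in MV4-11. For OAS1, OAS2, OASL and MX2 no DMSO libraries of different lines overlapped. For MX1 the DMSO libraries of Molm-14 and MV4-11 overlapped, and those of SKNO-1 (0.872 to 1.51 CPM) lay above both. With RMC-4550 the order was MV4-11, SKNO-1, Molm-14 from highest to lowest for all 6 genes, with no overlap between neighbours.

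**Figure D2:**
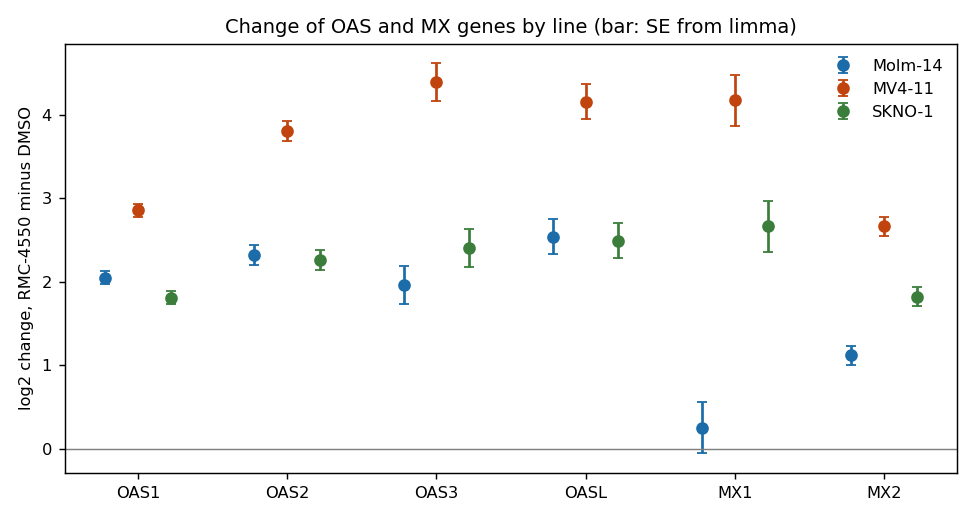
log2 change of each gene with RMC-4550 (RMC-4550 minus DMSO) in each of the 3 lines, with bars for the standard error from the limma fit. MV4-11 is the highest point for every gene, from 2.66 for MX2 to 4.39 for OAS3, and MX1 in Molm-14 lies at 0.25.

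The response of Molm-14 was smaller than that of MV4-11 for each gene. On the log2 scale, Molm-14 minus MV4-11 was -0.81 (SE 0.11) for OAS1, -1.49 (SE 0.17) for OAS2, -2.42 (SE 0.32) for OAS3, -1.62 (SE 0.29) for OASL, -1.54 (SE 0.16) for MX2 and -3.92 (SE 0.44) for MX1. Over all genes, 19.5% of 13458 tested were called for this difference in either direction. The lines carry the same class of FLT3 mutation and were grown in the same medium. The response of SKNO-1 minus the mean response of the other lines was negative for the OAS genes, from -0.86 (SE 0.25) for OASL to -0.64 (SE 0.097) for OAS1. It was -0.07 (SE 0.14) for MX2 and 0.45 (SE 0.38) for MX1. For that contrast 3.8% of 12792 genes tested were called in either direction. The median change in Molm-14 was 2.10 without its 1 library over 10% mitochondrial reads. In MV4-11 it was 3.81 among the libraries under 10% and 3.86 among those at or over 10%.

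The 6 genes followed one another across the 18 libraries, with Pearson r from 0.75 to 0.98 over their 15 pairs and Spearman rho from 0.67 to 0.97. The points share line, treatment and library, so these values describe the groups as much as the genes. By the mean Pearson r with the 6 genes over the 18 libraries, the 10 most similar genes of 16256 were SAMD9L (0.95), IFI44L (0.94), IFI16 (0.93), RSAD2 (0.92), SLC2A14 (0.92), TRIM69 (0.92), AXL (0.91), IFI35 (0.90), SP110 (0.90) and IFI6 (0.89). Spearman correlation kept 5 of the 10. SAMD9L, a restrictor of virus translation, had means of 11.9 and 25.2 CPM in Molm-14, 16.0 and 106 CPM in MV4-11 and 24.1 and 80.2 CPM in SKNO-1, with DMSO first. SP110, a nuclear body protein gene, had the pattern of MX1, at 28.01 and 29.2 CPM in Molm-14 against 31.6 and 70.8 CPM in MV4-11. SLC2A14 has a near-identical paralog, SLC2A3, so its reads could have been split between them.

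The rest of the interferon pathway was followed in lists that follow the chain from ligand to target. Of 21 interferon genes listed, 9 were in the table. None reached 1 CPM in any library, and the highest count was 6 reads, where 3 reads correspond to 0.138 to 0.192 CPM. That gene was IFNB1, which encodes interferon beta and was named after its values were seen. In MV4-11 it had 0 to 2 reads per library with DMSO (2 in all) and 4 to 6 with RMC-4550 (14 in all), without overlap. It had 0 to 2 reads in every library of Molm-14 and SKNO-1. In Molm-14 IFNA5 was also without overlap, with 0 reads in every DMSO library and 1 to 3 with RMC-4550 (6 in all). IFNW1 had 0 reads there with DMSO and 0 to 5 with RMC-4550. Both were named after their values were seen. The share of all genes without overlap at such counts was not counted.

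Among 12 tested genes for receptors and JAK-STAT proteins, 4 were called higher and 1 lower in Molm-14, 3 and 0 in MV4-11, and 1 and 2 in SKNO-1, by limma at a Benjamini-Hochberg adjusted p under 0.05. The shares of all genes called higher and lower were 21.5% and 25.2% (Molm-14), 5.85% and 8.03% (MV4-11) and, for SKNO-1, 10.8% and 16.2%. IRF9, the DNA-binding subunit of ISGF3, rose in Molm-14, where it was at 5.89 ± 0.56 CPM with DMSO and 12.2 ± 1.23 with RMC-4550 (SD, n = 3; log2 change 1.05, SE 0.16, limma BH-adjusted p 6.6e-05) and in MV4-11 from 11.6 ± 2.69 to 23.8 ± 3.73 CPM (1.06, BH-adjusted p 0.00027). In SKNO-1 it rose by 0.49 (BH-adjusted p 0.029), a call lost without any 1 of the DMSO libraries or without RMC-4550 replicate 2 or 3 (0.44 to 0.52). In MV4-11 STAT2, a subunit of ISGF3, rose by 0.59 (BH-adjusted p 0.024), but not without DMSO replicate 3 (0.48) or RMC-4550 replicate 2 (0.55) or 3 (0.53). TYK2, the kinase of the type I receptor, rose in Molm-14 from 346 ± 14.03 to 490 ± 8.11 CPM (0.50, BH-adjusted p 0.00028). The 1 lower call in Molm-14 was IFNGR1, a chain of the interferon gamma receptor (-0.21, BH-adjusted p 0.038), lost without any Molm-14 library other than RMC-4550 replicate 2 (-0.23 to -0.19). The 2 lower calls in SKNO-1, IFNGR1 (-0.28, BH-adjusted p 0.015) and IFNGR2 (-0.22, BH-adjusted p 0.031), fell to 0 or 1 when any single SKNO-1 library was left out. Without DMSO replicate 2 the MV4-11 counts were 5 higher and 1 lower.

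IRF7, the factor that amplifies interferon production and is itself induced by interferon, rose in all 3 lines. In Molm-14 it went from 39.6 ± 3.09 to 115 ± 22.5 CPM (log2 change 1.53, SE 0.18, limma BH-adjusted p 6.2e-06), from 67.2 ± 16.6 to 160 ± 30.3 CPM in MV4-11 (1.26, BH-adjusted p 0.00018) and in SKNO-1 from 49.3 ± 3.15 to 89.9 ± 9.92 CPM (0.86, BH-adjusted p 0.0020). The treated and DMSO libraries did not overlap in any line. IRF5 rose in Molm-14 (0.50, BH-adjusted p 0.00036) and SKNO-1 (0.70, BH-adjusted p 2.8e-05). IRF2, which can repress interferon-induced promoters, fell in Molm-14 from 38.7 ± 1.04 to 26.1 ± 0.29 CPM (-0.57, BH-adjusted p 3.7e-05) and in SKNO-1 by 0.30 on the log2 scale (BH-adjusted p 0.012). In all, 2 of 6 tested regulatory factors were called higher and 1 lower in Molm-14, 1 and 0 of 7 in MV4-11, and 2 and 1 of 7 in SKNO-1. Of all genes tested, 21.5% and 25.2% were in Molm-14, 5.85% and 8.03% in MV4-11, and 10.8% and 16.2% in SKNO-1. In MV4-11 1 factor was called lower without DMSO replicate 2 or without RMC-4550 replicate 1, where IRF2 was at -0.28.

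Fewer sensors of foreign nucleic acid and their adaptors were called higher in Molm-14 than in MV4-11 and SKNO-1. Of 13 tested, 8 were called higher and 0 lower in MV4-11, while SKNO-1 had 9 and 2 and Molm-14 had 2 and 2 (limma). Among all genes tested, Molm-14 had 21.5% called higher and 25.2% called lower. MV4-11 had 5.85% higher with 8.03% lower, and SKNO-1 had 10.8% higher with 16.2% lower. The 2 lower calls in SKNO-1 were 0 or 1 without any single SKNO-1 library other than DMSO replicate 3. EIF2AK2, which encodes the RNA-sensing kinase PKR, rose in MV4-11 from 26.9 ± 6.55 to 116 ± 21.8 CPM (log2 change 2.12, SE 0.17, BH-adjusted p 4.6e-07) and in SKNO-1 from 31.9 ± 0.63 to 66.9 ± 4.45 CPM (1.07, BH-adjusted p 0.00019). In Molm-14 it was at 59.5 ± 2.04 and 63.5 ± 12.4 CPM, with overlap (0.07, BH-adjusted p 0.73), but it was called higher there with the mitochondrial share as covariate (0.29) and in libraries under 10% (0.24). IFIH1, the sensor MDA5, rose by 1.51 in MV4-11 (BH-adjusted p 8.1e-06) and by 0.57 in SKNO-1 (BH-adjusted p 0.012), where the call was lost without RMC-4550 replicate 1 (0.48). Its Molm-14 value was 0.03 (BH-adjusted p 0.89). RIGI, which encodes RIG-I, the partner of OASL, rose by 0.89 in MV4-11 (BH-adjusted p 0.0013) and 0.66 in SKNO-1 (BH-adjusted p 0.0060) and had a value of -0.05 in Molm-14 (BH-adjusted p 0.81). SAMHD1, a triphosphohydrolase that restricts viruses, rose from 81.9 ± 24.7 to 204 ± 42.5 CPM in MV4-11 (1.33, BH-adjusted p 0.00063) and in SKNO-1 from 208 ± 2.33 to 416 ± 7.83 CPM (1.00, BH-adjusted p 0.0028). Its Molm-14 value was 0.53 (BH-adjusted p 0.058), called higher with the mitochondrial covariate (0.84) and in libraries under 10% (0.83). MAVS, an adaptor, rose in all 3 lines, by 0.68 in Molm-14 (BH-adjusted p 2e-06), 0.27 in MV4-11 (0.018) and 0.25 in SKNO-1 (0.017). The MV4-11 and SKNO-1 calls were lost without some single libraries (0.20 to 0.26). CGAS, the DNA sensor, fell in Molm-14 from 44.4 ± 0.59 to 27.0 ± 4.57 CPM (-0.73, BH-adjusted p 2.8e-05), as did TRAF3 (-0.95, BH-adjusted p 7.4e-05). The response of Molm-14 was below that of MV4-11 for 7 of the 13 by the test of the difference and above it for 1, where 9.12% and 10.3% of 13458 genes tested were.

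ABCE1 and PDE12 were listed as partners of the OAS enzymes in the 2-5A pathway, and both fell in Molm-14 and SKNO-1. ABCE1, a ribosome recycling factor, fell in Molm-14 from 125 ± 5.02 to 56.4 ± 1.90 CPM (log2 change -1.15, SE 0.088, limma BH-adjusted p 8.5e-08) and in SKNO-1 from 83.1 ± 3.90 to 49.0 ± 2.30 CPM (-0.76, BH-adjusted p 9.5e-06). PDE12, a phosphodiesterase that degrades 2-5A, fell from 30.4 ± 0.56 to 15.4 ± 2.58 CPM in Molm-14 (-0.997, BH-adjusted p 6e-05) and in SKNO-1 from 23.1 ± 0.56 to 14.3 ± 0.80 CPM (-0.69, BH-adjusted p 0.0025). In MV4-11 their values were -0.26 (BH-adjusted p 0.061) and -0.19 (BH-adjusted p 0.47), and ABCE1 was called lower there without DMSO replicate 1 (-0.33). Both were called lower in MV4-11 with the mitochondrial share as covariate (-0.32 for ABCE1, -0.37 for PDE12) and in libraries under 10% (-0.51 and -0.44). For both genes the response of Molm-14 was below that of MV4-11 (differences -0.89 and -0.81, BH-adjusted p 0.00030 and 0.015).

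Of 9 brakes and modifiers of interferon signalling, 6 were called higher in SKNO-1, and 4 each in Molm-14 and MV4-11, with 0 lower in any line (limma). The shares of all genes called higher were 10.8%, 21.5% and 5.85% in that order. The list holds 2 genes that are no brakes: UBA7, the enzyme that charges ISG15, was 1 of the calls in Molm-14 (0.61) and SKNO-1 (0.35), and TRIM25, a ligase that activates RIG-I, was 1 of those in MV4-11 (0.83). Without RMC-4550 replicate 2, 1 was called lower in Molm-14. SOCS1, which inhibits JAK kinases, rose in Molm-14 from 6.87 ± 0.29 CPM to 21.96 ± 3.22 (log2 change 1.66, SE 0.17, BH-adjusted p 1.4e-06), from 7.44 ± 0.98 to 17.9 ± 3.29 CPM in MV4-11 (1.26, BH-adjusted p 1e-04) and in SKNO-1 from 5.52 ± 1.05 to 11.6 ± 1.32 CPM (1.08, BH-adjusted p 0.00018). CISH, another member of that family and a target of STAT5, rose by 0.67, 1.02 and 0.84 in the same order (BH-adjusted p 1.8e-05, 1.1e-06 and 3.1e-06). SOCS3 rose in Molm-14 (0.85, BH-adjusted p 7.1e-05) and SKNO-1 (0.96, BH-adjusted p 4e-05). USP18, which removes ISG15 from proteins and blocks the type I receptor, rose in MV4-11 from 3.90 ± 1.19 to 13.4 ± 3.19 CPM (1.78, BH-adjusted p 3.4e-05). Its Molm-14 value was 0.13 (BH-adjusted p 0.62), called higher at 0.36 with the mitochondrial covariate and 0.30 in libraries under 10%, and the responses differed by -1.65 (BH-adjusted p 0.0020). In SKNO-1 it rose by 0.65 (BH-adjusted p 0.031), a call that was lost without any 1 SKNO-1 library other than DMSO replicate 3 (0.55 to 0.69).

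**Figure D3:**
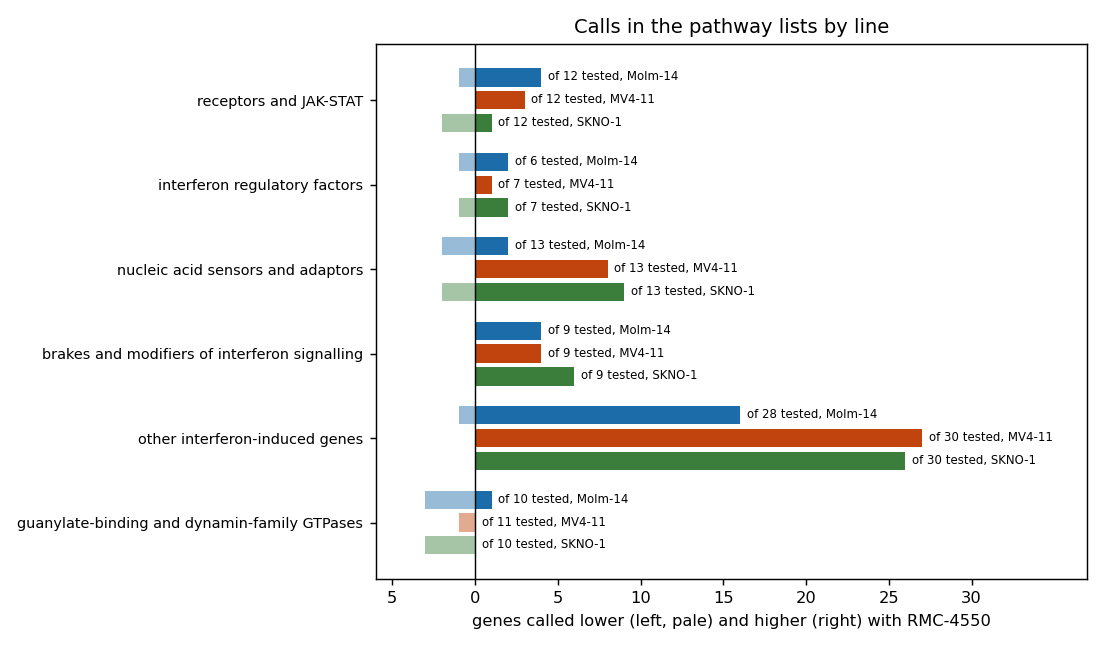
Number of genes of 6 pathway lists called higher (solid bars, to the right of 0) and lower (pale bars, to the left) with RMC-4550 in Molm-14 (blue), MV4-11 (red) and SKNO-1 (green), with the number tested beside each bar. The list of other interferon-induced genes has 16 of 28, 27 of 30 and 26 of 30 called higher, and the sensors 2, 8 and 9 of 13. Some of the other interferon-induced genes met the filter only through their treated libraries.

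Other interferon-induced genes were the list most often called. In Molm-14 16 of 28 tested were called higher and 1 lower, in MV4-11 27 and 0 of 30, and in SKNO-1 26 and 0 of 30, with median log2 changes of 0.55, 1.82 and 1.11. The shares of all genes called higher and lower were 21.5% and 25.2% in Molm-14, 5.85% and 8.03% in MV4-11 and 10.8% and 16.2% in SKNO-1. IFI44, IFI44L, SIGLEC1 and EPSTI1 in MV4-11, IFI44L and SIGLEC1 in Molm-14 and EPSTI1 in SKNO-1 had no DMSO library at 1 CPM. They met the filter there only through their treated libraries, so they had to differ, and the counts of higher calls include them. IFI44 was named after its values were seen. The gene of the list called lower in Molm-14 was BST2, which tethers budding viruses and was named after its value was seen. It was at 64.4 ± 2.91 and 41.3 ± 14.7 CPM in Molm-14. Without RMC-4550 replicate 2, 1 gene was called lower in SKNO-1. IFIT3, which binds viral RNA with IFIT1, rose from 3.13 ± 0.31 to 15.3 ± 2.26 CPM in Molm-14, from 1.20 ± 0.055 to 36.8 ± 4.36 in MV4-11 and from 2.41 ± 0.29 to 15.5 ± 1.25 in SKNO-1 (log2 changes 2.27, 4.90 and 2.68, SE 0.14, limma BH-adjusted p 9.9e-09, 1.9e-12 and 5.3e-09). IFIT1 rose by 2.02, 4.80 and 3.31 (BH-adjusted p 1.5e-07, 1.1e-11 and 3.2e-09). IFI6, a mitochondrial and endoplasmic reticulum protein that restricts flaviviruses, rose by 2.30, 2.86 and 1.13 (BH-adjusted p 1.1e-07, 3.4e-08 and 0.00024). EPSTI1 had at most 6 reads in any Molm-14 DMSO library and rose to 7.09 ± 1.11 CPM in MV4-11 and 4.61 ± 0.16 CPM in SKNO-1. SIGLEC1, a macrophage receptor gene, was at 0 reads in all 3 Molm-14 DMSO libraries and at 1.96 ± 0.76 CPM in the treated ones. It went from 0.344 ± 0.168 to 12.5 ± 1.91 CPM in MV4-11 and from 1.11 ± 0.11 to 12.7 ± 1.98 CPM in SKNO-1.

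Part of this list had, like MX1, a larger log2 change with RMC-4550 in MV4-11 and SKNO-1 than in Molm-14. Their levels did not all follow MX1, as XAF1 with DMSO was highest in Molm-14. In all, 16 genes were called higher in all 3 lines, and 9 were called higher in MV4-11 and SKNO-1 but not in Molm-14. The test of the difference called the Molm-14 response below the MV4-11 response for 20 of 28 and above it for 0. Among all 13458 genes tested, 9.12% were called below and 10.3% above. Of those 20, 10 were not called higher in Molm-14. IFI44 and IFI44L, also among the 20, met the filter in MV4-11 only through their treated libraries. XAF1, a pro-apoptotic interferon target, was at 27.5 ± 1.43 and 27.3 ± 1.25 CPM in Molm-14 and rose from 22.8 ± 2.04 to 70.5 ± 1.76 CPM in MV4-11 and from 16.2 ± 1.07 to 40.003 ± 1.04 CPM in SKNO-1. Its response differed between Molm-14 and MV4-11 by -1.64 (SE 0.12, limma BH-adjusted p 8e-07). CMPK2, a nucleotide kinase gene induced by interferon, differed by -3.04 (SE 0.38, BH-adjusted p 0.00012). XAF1 and CMPK2 were named after their values were seen. The response of SKNO-1 minus the mean of the others was called negative for 6 of 28 genes and positive for 2, against 2.45% and 1.35% of 12792 genes tested.

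**Figure D4:**
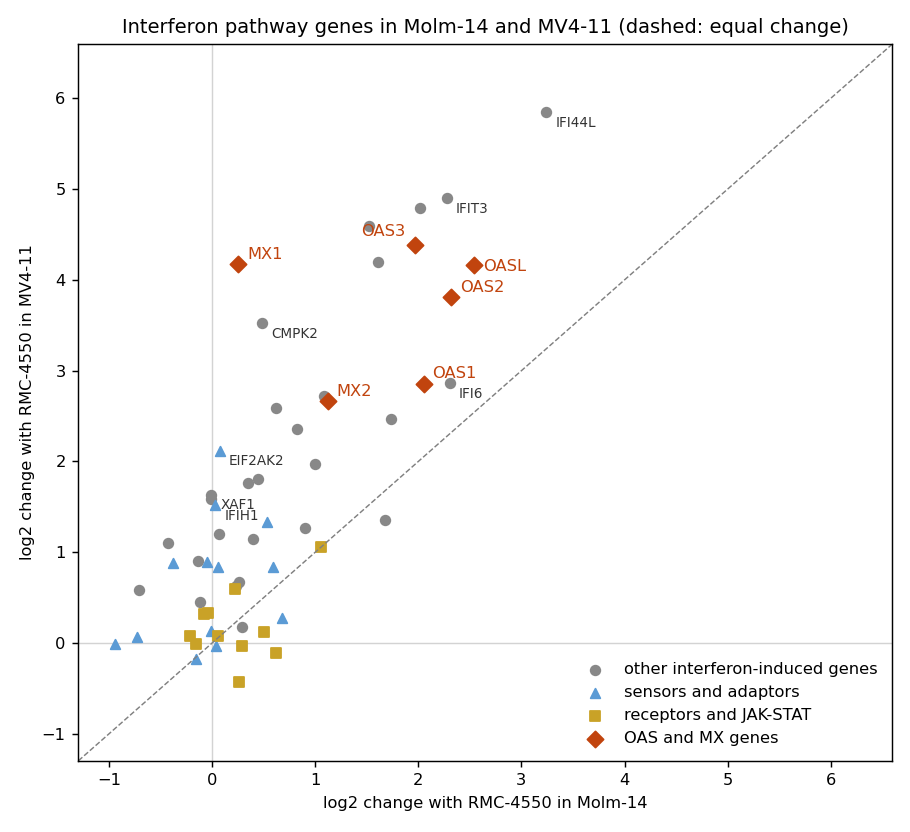
log2 change with RMC-4550 in Molm-14 (horizontal axis) and MV4-11 (vertical axis) for the OAS and MX genes (red diamonds), other interferon-induced genes (grey circles), sensors and adaptors (blue triangles) and receptors and JAK-STAT genes (yellow squares) tested in both lines, with MX1 added. The dashed line marks equal change, and the 6 red points lie above it, MX1 at 0.25 against 4.17. SIGLEC1 is left out because it had 0 reads in untreated Molm-14, and genes not reported here are not drawn.

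GTPase relatives of the MX proteins were followed in a list of guanylate-binding and dynamin-family genes. Of 10 tested in Molm-14, 1 was called higher and 3 lower, against 21.5% and 25.2% of all genes. In MV4-11 0 and 1 of 11 were, against 5.85% and 8.03%, and in SKNO-1 0 and 3 of 10, against 10.8% and 16.2%. The 3 lower calls in SKNO-1 were 1 when any single SKNO-1 library was left out. GBP2, a target of interferon gamma, rose in Molm-14 from 50.5 ± 3.48 to 74.8 ± 12.6 CPM (log2 change 0.56, SE 0.13, limma BH-adjusted p 0.0032) and had values of 0.06 in MV4-11 and -0.09 in SKNO-1. DNM1L, the dynamin-like GTPase of mitochondrial fission, fell by 0.47 in Molm-14 (BH-adjusted p 0.00013), 0.38 in SKNO-1 (0.0015) and 0.37 in MV4-11 (0.0038), all as log2 changes.

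Neighbours of the OAS genes on chromosome 12 were tested, while BACE2 and RIPK4, the neighbours of the MX genes in the table, did not pass the filter. Of 8 tested neighbours in Molm-14, 2 were called higher and 1 lower, in MV4-11 0 and 0 of 7, and in SKNO-1 1 and 1 of 8. Of all genes tested, 21.5% were called higher and 25.2% lower in Molm-14. The shares were 5.85% and 8.03% in MV4-11 and 10.8% and 16.2% in SKNO-1. The 2 higher calls in Molm-14 were 1 without any single Molm-14 library other than RMC-4550 replicate 3. RASAL1, named after its values were seen, was 1 of the 2, with a log2 change of 2.85. It was at 0.189 ± 0.091 CPM with DMSO and 1.46 ± 0.22 with RMC-4550, and met the filter only through its treated libraries. In SKNO-1 it went the other way, from 3.51 ± 0.099 to 2.22 ± 0.30 CPM, and was not called. The call lower was PTPN11 in both lines, the gene of the drug's target, which lies near OAS1 on chromosome 12. In Molm-14 its level fell, from 242 ± 10.9 to 125 ± 35.8 CPM (log2 change -1.0, SE 0.21, limma BH-adjusted p 0.0013). In SKNO-1 it fell by 0.64 on the log2 scale (BH-adjusted p 0.037), a call lost without any 1 SKNO-1 library (-0.68 to -0.59), and its MV4-11 value was -0.30 (BH-adjusted p 0.42). With the mitochondrial share as covariate it was called lower in MV4-11 (-0.59), as in libraries under 10% (-0.68). P2RX7, beside OASL, rose by 0.44 in SKNO-1 (BH-adjusted p 0.021), a call lost without DMSO replicate 2 or 3 or RMC-4550 replicate 2 or 3 (0.40 to 0.45).

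Over all pathway lists without the neighbours, 29 of 81 genes tested were called higher and 10 lower in Molm-14, 43 and 1 of 85 in MV4-11, and 44 and 10 of 84 in SKNO-1. The shares of all genes were 21.5% and 25.2% in Molm-14, 5.85% and 8.03% in MV4-11, and 10.8% and 16.2% in SKNO-1. The higher counts include interferon-induced genes that met the filter only through their treated libraries. In MV4-11 the 1 lower call became 2 without DMSO replicate 1 or RMC-4550 replicate 1 and 3 without DMSO replicate 2. In SKNO-1 the 10 lower calls were 4 to 6 without any single SKNO-1 library. The difference between the responses of Molm-14 and MV4-11 was called negative for 33 of 81 genes and positive for 4. Among all 13458 genes tested for it, 9.12% were called negative and 10.3% positive.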

How the data were processed

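The authors deposited 1 table of log2 values for 40184 gene IDs in 18 RNA-seq libraries of polyadenylated RNA. Per the submitters' processing notes, FastQC, STAR, limma and GRCh38 were used, with no versions given. From the values, each deposited log2 value is the logarithm of reads plus 0.5 over an effective library, as CPM, which is the read total times a scaling factor (0.890 to 1.11). Undoing this gave whole reads within 0.02 for 100% of values under 50 reads. The CPM used here are those reads over the effective library. Genes with at least 1 CPM in 3 libraries (16262) were fitted with limma 3.58.1 (lmFit, eBayes with trend, two-sided, 1 coefficient per group) in R 4.3.3 on the log2 values, and tested in a line with the same filter within it, with Benjamini-Hochberg adjustment and a threshold of 0.05. A test on simulated data for Molm-14 (16262 genes) called 187 of 200 changes of 2-fold with the right sign, and 3.61% of 194 calls were unchanged genes. Counting error and amplification without molecular identifiers limit low values. Replicate numbers did not pair the libraries (same-number correlations of deviations from -0.40 to 0.59 over 9 pairs).

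The members and lists were chosen with earlier results of these data known. Named genes were the members, up to 3 called genes of largest change per list and line with a mean of at least 1 CPM in the line, PTPN11, STAT2, IRF9 and IRF7, and the 10 genes most correlated with the members. Results of some other genes are not reported here, though counts over lists include them. Alternatives covered the offset (log2(CPM + 1)), the filter (none, or a mean of 5 CPM or more), the scaling (by median ratios or quantiles), the fit (each line on its own, voom weights, eBayes without trend, a replicate block), the mitochondrial share (a covariate, or only libraries under 10%), Spearman correlation and leaving out each library. Figures were drawn with matplotlib 3.10.9.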

Additional observations from a re-analysis of the deposited data

Results flagged for a closer look

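Named pathway genes are listed here where the test of the difference itself (limma, Benjamini-Hochberg adjusted p) called 2 lines' responses to RMC-4550 unequal. Over all pathway lists, 33 of 81 differences between Molm-14 and MV4-11 were called negative and 4 positive, and 7 and 4 of 80 between SKNO-1 and the others, so the list is partial. Among all genes tested, the shares were 9.12% and 10.3% for the former contrast and 2.45% and 1.35% for the latter. None of the causes was tested, and MV4-11 and Molm-14 include the 4 libraries with 10.5% to 15.02% mitochondrial reads.

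For the response of Molm-14 minus that of MV4-11, on the log2 scale, the interferon-induced genes IFI44 (-3.07, adjusted p 2.5e-05) and CMPK2 (-3.04, 0.00012) had the largest negative values of any pathway gene. They were named after their values were seen. IFIT1 differed by -2.78 (adjusted p 3.4e-06), IFIT3 by -2.63 (1.2e-06) and IFI44L by -2.61 (0.00041). IFI44 in MV4-11 (0.430 to 0.838 CPM) and IFI44L in Molm-14 and MV4-11 had no DMSO library at 1 CPM. They met the filter there only through their treated libraries, so they had to rise in those lines. Among the sensors, EIF2AK2 differed by -2.04 (6.6e-05), IFIH1 by -1.48 (0.00044), RIGI by -0.95 (0.011), TRAF3 by -0.93 (0.0064) and CGAS by -0.80 (0.0018). USP18 differed by -1.65 (0.0020) and IRF2 by -0.38 (0.030). Among the 2-5A partners, ABCE1 differed by -0.89 (0.00030) and PDE12 by -0.81 (0.015). For both, the values of the lines lay closer with the mitochondrial covariate, as given above. The difference was positive for IFNAR2, a chain of the type I receptor named after its value was seen, at 0.69 (0.048), for MAVS, the adaptor of RIG-I and MDA5, at 0.40 (0.013), for TYK2 at 0.38 (0.045) and for IFNGR2 at 0.32 (0.037).

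For the response of SKNO-1 minus the mean of the other 2 lines, SIGLEC1 differed by -2.14 (adjusted p 0.0029), a value that rests on a Molm-14 DMSO group at 0 reads and so depends on the offset of 0.5 reads. IFI44L differed by -1.71 (0.0068), IFI6 by -1.46 (0.0013), IFIT3 by -0.91 (0.0061) and IFNGR2 by -0.34 (0.035). SIGLEC1 and IFI44L met the filter in Molm-14 and MV4-11 only through their treated libraries. CGAS differed by 0.62 (0.0084). The other positive values, named after they were seen, were 1.51 for DDX60 (0.0068), 0.58 for STING1 (0.0036) and 0.49 for XAF1 (0.011).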

How the results depend on the processing

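The median log2 change over the 6 genes kept its sign in every line under every alternative run. It was 2.96 in MV4-11, 1.91 in SKNO-1 and 1.28 in Molm-14 with log2(CPM + 1), an offset that shrinks changes of low genes, and 1.66 in Molm-14 with quantile normalization. With a mean of at least 5 CPM, which left 4 of the 6 genes, it was 3.33 in MV4-11 and 2.04 in SKNO-1. Among libraries under 10% mitochondrial reads it was 3.81 in MV4-11. Leaving out single libraries gave 1.96 to 2.10 in Molm-14, 3.85 to 4.04 in MV4-11 and 2.28 to 2.39 in SKNO-1.

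The count of pathway genes called lower in MV4-11 (1) was 2 with a mean of at least 5 CPM, 0 when each line was fitted alone, 6 with a mitochondrial covariate and 6 among libraries under 10%, and 1 to 3 with single libraries left out. In SKNO-1 (10) it was 4 with no filter, 5 with median-ratio scaling, 4 with quantile normalization and 4 to 6 with single libraries left out. Within lists, the sensors called higher in MV4-11 (8) were 4 in a separate fit per line, the brakes and modifiers called higher there (4) were 7 with the covariate, and the receptors and JAK-STAT genes called higher in SKNO-1 (1) were 7 in a separate fit. The causes were not tested.

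With the replicate number as a block, which pairs libraries by a number that 3 of 9 DMSO libraries bore out as their best match, the medians stayed at 2.01, 3.98 and 2.33, and the pathway calls were 32 higher and 9 lower in Molm-14, 44 and 1 in MV4-11 and 47 and 10 in SKNO-1. OASL and MX1 in untreated Molm-14 and OAS3 and MX1 in untreated MV4-11 rest on 4 to 14 reads per library, which limits their folds.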
